A study of Homo sapiens with 6 samples.

Results

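The genes described here encode the machinery that selects, licenses and fires origins of DNA replication and then copies the DNA at the fork. They were the 58 genes named ORC1 to ORC6, CDC6, CDT1, GMNN, MCM2 to MCM8, MCM10, CDC45, GINS1 to GINS4, CDC7, DBF4, TICRR, TOPBP1, RECQL4, the polymerase, primase, clamp, clamp loader and RPA subunits, and the nucleases, ligase and fork factors named below. The list was set by gene symbol, but with earlier results of these data known. All 58 were found, each once, among the 62710 genes of the count table. Expression had been measured by poly(A)-selected RNA-seq in 6 libraries of A549, an established human lung adenocarcinoma cell line. In 3 libraries (PS-MP) the cells had received polystyrene microplastic particles at a labelled 20 mg/mL for 48 h, and in the other 3 (control) no treatment. The labels do not state whether replicate libraries were grown as separate cultures, and the p-values rest on the variation among them, which could be technical only.

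A replication origin is first bound by the origin recognition complex (ORC). In G1, CDC6 and CDT1 load the MCM2 to MCM7 helicase there as an inactive double ring, a step called licensing, which geminin (GMNN) blocks afterwards by binding CDT1. At the start of S phase the kinase CDC7 with its activator DBF4, together with cyclin-dependent kinase, recruits CDC45 and the GINS complex to the helicase, which then unwinds DNA ahead of the polymerases. Many of these genes are transcribed under E2F control and their mRNA rises toward S phase in dividing cells, while some subunits, such as ORC2 to ORC5, are known to be expressed more evenly through the cycle.

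The replication genes were lower in PS-MP cells at nearly every step. Of the 57 members with enough counts to be tested, 50 fell at an adjusted p under 0.05 (edgeR quasi-likelihood F test, adjusted over all 15458 tested genes after Benjamini and Hochberg), and 0 rose. Over all tested genes 9.56% were called, 4.65% lower and 4.91% higher. By DESeq2, by limma-voom and at an unadjusted edgeR p under 0.05, the number of members that were higher was also 0. The median log2 fold change of the tested members was −1.29, against 0.00 over all tested genes. The 58 members together took 1213, 1228 and 1016 CPM (counts scaled to a common library total with TMM factors) in the PS-MP libraries, against 2102, 2120 and 2959 CPM in the control libraries. The PS-MP libraries lay below every control library in 53 of the 57, against 15.4% of all tested genes with PS-MP below and 16.6% with PS-MP above. In 39 members the fall was at least 2-fold, against 2.23% of all tested genes called lower by that much. In bulk RNA, fewer cells in S phase and less of these transcripts per cell cannot be told apart.

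Libraries held 17541896 to 19119508 counts in the PS-MP group and 17013293 to 21316451 in the control group, so that 3 counts correspond to 0.137 to 0.177 CPM, a floor that covers counting error only. CDKN2A and CDKN2B, which are deleted in A549, had 0 counts in all 6 libraries, and the epithelial keratin gene KRT8 had 62025 to 72570 counts in PS-MP libraries and 61877 to 78580 in controls. The 10 A549 epithelial markers, KRT8 among them, summed to 18786 to 20971 CPM in PS-MP libraries and 16715 to 17548 CPM in controls. AKR1B10 and ALDH1A1 lay above every control library in PS-MP cells, and the rest overlapped. No epithelial marker was called, and SLC34A2 had 0 or 1 count in each library. EPCAM and NAPSA were low as well. EPCAM had a mean of 2.18 CPM in PS-MP cells and 2.47 CPM in controls, and NAPSA 1.32 CPM in PS-MP cells and 1.18 CPM in controls. Of the 7 leukocyte markers CD3E had 0 counts throughout and the summed level was 24.2 to 37.2 CPM in PS-MP libraries and 19.9 to 24.0 CPM in controls, nearly all of it CD14. The 8 fibroblast markers summed to 10.9 to 14.9 CPM in PS-MP libraries and 7.19 to 9.64 CPM in controls, with COL1A2 at 0 throughout. One of them, DCN, was called higher in PS-MP cells (4.92 ± 1.78 CPM in PS-MP cells and 2.28 ± 0.114 CPM in controls, SD, n = 3 each, edgeR adjusted p = 0.0245). The 6 endothelial markers summed to 0.695 to 1.01 CPM in PS-MP libraries and 0.321 to 1.06 CPM in controls. Replicate 3 stood apart in both groups. PS-MP replicate 3 had the lowest value of its group in 41 of the 57 tested members, against 41.2% of all tested genes. Control replicate 3 had the highest value of its group in 54 of the 57, against 42.0% of all tested genes. The mitochondrial share of counts was 15.6% to 16.1% in PS-MP libraries, and in controls 12.4% in replicate 3 and 16.0% to 17.8% in the other two. The part of these marker levels and of the mitochondrial share in the results was not tested. Without replicate 3 of either group, 52 members fell and 0 rose, where 13.1% of all genes tested in that setting were called lower.

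**Figure D1:**
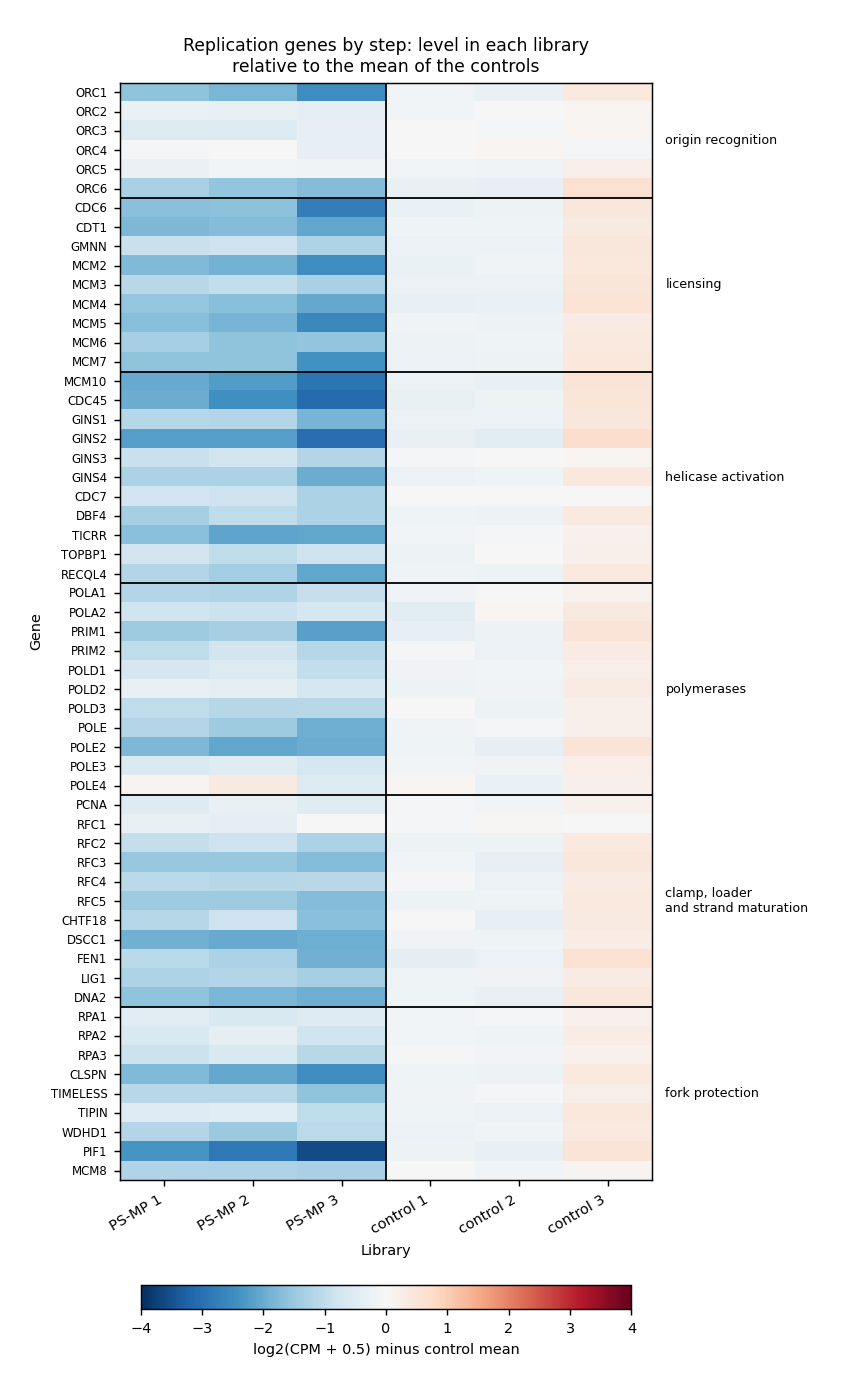
Level of each of the 57 tested replication genes (rows, grouped by step) in each library (columns), as log2(CPM + 0.5) minus the mean of the controls; blue is lower and red higher. The PS-MP columns are blue in nearly every row, the ORC2, ORC4, ORC5, RFC1 and POLE4 rows are the palest, and control replicate 3 is the reddest control column.

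The promoters of 5 members are shown because members that fell and members that did not can be compared in sequence as well as in level. RefSeq promoter windows (GRCh38.p14, 250 bases before to 50 after an annotated start, the start nearest the deposited gene's 5′ end) were found for 49 of the 58 members. No limit was set on the distance between that start and that end. It was 97391 bases for GINS3, 16665 for GINS1, 3115 for RFC5 and 1119 for GINS2. The windows were searched on both strands for an E2F-type site, spelled TTTCCCGC, TTTCGCGC, TTTGCCGC or TTTGGCGC, and for the CCAAT box. The 250 bases before the start of the called member with the smallest adjusted p in each of 4 steps are printed 5′ to 3′, followed by those of POLE4, the tested member with the highest adjusted p. Capital runs of 8 letters mark an E2F-type site and capital runs of 5 letters a CCAAT box, on either strand.
ORC1, chr1:52404424-52404673, minus strand: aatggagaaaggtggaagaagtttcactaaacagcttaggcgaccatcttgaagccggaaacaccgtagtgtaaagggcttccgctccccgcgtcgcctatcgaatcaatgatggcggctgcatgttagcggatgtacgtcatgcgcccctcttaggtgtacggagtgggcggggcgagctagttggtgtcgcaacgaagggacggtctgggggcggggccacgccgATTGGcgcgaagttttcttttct
CDT1, chr16:88803539-88803788, plus strand: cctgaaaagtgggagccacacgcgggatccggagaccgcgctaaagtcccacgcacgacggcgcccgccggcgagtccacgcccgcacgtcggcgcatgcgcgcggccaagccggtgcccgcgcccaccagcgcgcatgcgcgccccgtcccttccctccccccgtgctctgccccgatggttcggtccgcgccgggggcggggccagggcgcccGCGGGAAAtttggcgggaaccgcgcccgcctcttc
TICRR, chr15:89575219-89575468, plus strand: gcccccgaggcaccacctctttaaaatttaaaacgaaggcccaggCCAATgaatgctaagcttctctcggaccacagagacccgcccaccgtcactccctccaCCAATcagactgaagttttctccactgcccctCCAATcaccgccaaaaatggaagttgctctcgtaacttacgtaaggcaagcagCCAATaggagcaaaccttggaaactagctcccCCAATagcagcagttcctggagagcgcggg
POLA1, chrX:24693668-24693917, plus strand: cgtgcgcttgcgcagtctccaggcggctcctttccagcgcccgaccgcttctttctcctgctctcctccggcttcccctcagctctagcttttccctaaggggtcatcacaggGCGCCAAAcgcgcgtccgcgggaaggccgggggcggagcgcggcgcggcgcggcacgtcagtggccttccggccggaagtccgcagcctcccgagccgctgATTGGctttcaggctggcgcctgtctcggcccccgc
POLE4, chr2:74958393-74958642, plus strand: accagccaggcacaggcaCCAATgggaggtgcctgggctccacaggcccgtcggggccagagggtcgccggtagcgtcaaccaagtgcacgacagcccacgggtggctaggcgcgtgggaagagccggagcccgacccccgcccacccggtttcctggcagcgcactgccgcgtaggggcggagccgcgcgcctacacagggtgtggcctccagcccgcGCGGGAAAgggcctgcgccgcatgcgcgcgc

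Within the whole windows, which run past the start, 21 of the 49 members (42.9%) held an E2F-type site, against 3.27% of the 27305 genes with a window and 5.03% of the 11251 of them that were tested here. For the comparison genes 1 window each was taken, that with the lowest coordinate and not that nearest the deposited 5′ end. For every motif, the shares of members and comparison genes were thus not measured alike. By call, a site was found in 20 of 41 members that fell and in 1 of 8 others, which is POLE4. The 8 others are members not called or not tested, RNASEH2A being the untested one. Among the 20 were GINS1, GINS2 and GINS3, whose windows lay far from the deposited 5′ end. Of the licensing genes 6 of 7 had one, and of the ORC genes 1 of 6, ORC3. Only the spellings given above were searched, so a site with other letters would not be counted. In CDT1 the site began 35 bases before the start, in POLA1 137 bases before it and in POLE4 31 bases before it. TICRR held no E2F-type site and 5 CCAAT boxes. CCAAT boxes were found in 57.1% of member windows, against 36.1% of the windows of tested genes, and in 22 of the 41 members that fell and 6 of the 8 others. The CHR element, spelled TTTGAA, known from genes of late cell cycle phases, was found in 2 of the 49 (DBF4 and PIF1), against 10.0% of the windows of tested genes. No one of these motifs contains another, and a match describes the letters, not binding.

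Origin recognition split into a pair of genes that fell several-fold and a core that moved little. ORC1, the largest subunit and the one that is degraded after G1 in human cells (ENSG00000085840, chromosome 1, 52372829 to 52404423, GRCh38), had 4.63, 3.92 and 2.28 CPM in PS-MP libraries and 13.96, 12.5 and 19.9 CPM in control libraries. Its highest PS-MP value was below its lowest control value, and the level was 4.30-fold lower (log2 fold change −2.10 ± 0.26 SE, edgeR adjusted p = 0.000563). ORC6, the small subunit that associates loosely with the others, had 7.47, 5.997 and 5.36 CPM in PS-MP libraries and 15.5, 15.2 and 29.4 CPM in control libraries. Control replicate 3 was the high one, the groups did not overlap, and the fall was 3.20-fold (adjusted p = 0.00245). ORC3 fell 1.41-fold, with 13.7, 13.8 and 16.1 CPM in PS-MP libraries and 20.2, 19.6 and 21.8 CPM in control libraries (adjusted p = 0.0313).

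The 3 other ORC subunits did not pass. ORC2 stood at 42.3, 41.0 and 38.1 CPM in PS-MP libraries and 46.9, 51.1 and 53.6 CPM in controls, without overlap (log2 fold change −0.32, adjusted p = 0.0828). In ORC4 and ORC5 the groups overlapped. ORC4 had 32.9, 35.5 and 27.6 CPM in PS-MP libraries and 35.6, 36.9 and 33.2 CPM in controls (log2 fold change −0.14, adjusted p = 0.526). ORC5 had 24.6, 27.5 and 26.7 CPM in PS-MP libraries and 27.1, 26.7 and 35.6 CPM in controls (log2 fold change −0.18, adjusted p = 0.443). Per kb of exon, ORC1 was at 1.14 CPM per kb in PS-MP cells and 4.90 in controls, while the ORC2 to ORC5 means ran from 3.59 to 7.05 CPM per kb in PS-MP cells and from 3.95 to 8.66 in controls. ORC3 lost its call without PS-MP replicate 1 (adjusted p = 0.139) or 2 (0.110) and without control replicate 1 (0.0925), 2 (0.0825) or 3 (0.0700), and with the replicate 3 libraries of both groups left out ORC2 passed (log2 fold change −0.24, adjusted p = 0.0466).

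**Figure D2:**
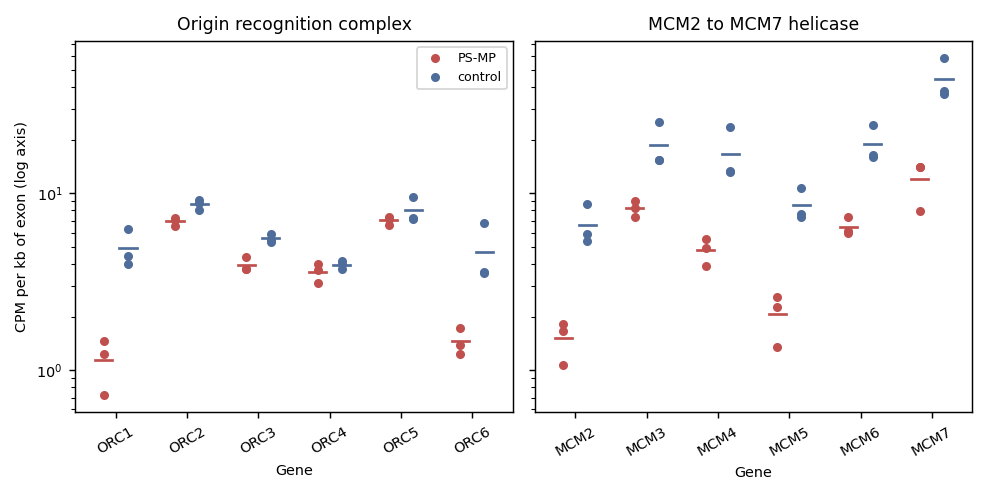
TMM-normalised CPM per kb of exon (log axis) of the ORC subunits (left) and the MCM2 to MCM7 subunits (right) in each library; points are libraries, short lines are group means. ORC1 and ORC6 and all 6 MCM genes are lower in the PS-MP libraries with no overlap, whereas ORC4 and ORC5 overlap.

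All 9 licensing genes fell, each by at least 2-fold (median log2 fold change −1.88). CDT1, which brings the MCM ring to ORC and CDC6 (ENSG00000167513, chromosome 16), had 3.76, 3.92 and 3.02 CPM in PS-MP libraries and 12.5, 12.5 and 18.6 CPM in controls. Every PS-MP library was below every control library, at a 4.07-fold lower level (adjusted p = 0.000206). MCM2, a helicase subunit that also binds histones (ENSG00000073111, chromosome 3), had 8.97, 8.18 and 5.25 CPM in PS-MP libraries and 26.3, 28.9 and 42.5 CPM in controls. Its log2 fold change of −2.13 ± 0.23 SE was the lowest of the helicase ring (adjusted p = 0.000271).

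MCM5 was close to it, with 18.9, 16.7 and 9.92 CPM in PS-MP libraries against 56.2, 54.2 and 78.7 CPM in controls, 4.16-fold lower (adjusted p = 0.000285). MCM6 had 30.2, 24.7 and 25.1 CPM in PS-MP libraries and 65.9, 68.1 and 100.2 CPM in controls, 2.93-fold lower (adjusted p = 0.000273). PS-MP replicate 3 was the lowest library for MCM2 and MCM5 but not for MCM6. The remaining ring subunits MCM4, MCM7 and MCM3 fell 3.53-fold, 3.68-fold and 2.27-fold. MCM7 was the most abundant of the ring per kb in both groups, at 12.04 CPM per kb in PS-MP cells and 44.2 in controls, and MCM2 the least, at 1.52 in PS-MP cells and 6.64 in controls. The highest stood 7.90-fold above the lowest in PS-MP cells and 6.66-fold in controls.

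CDC6, the ATPase that loads the ring with CDT1, fell 4.09-fold (10.1 ± 3.98 CPM in PS-MP cells and 41.2 ± 12.4 CPM in controls, SD, n = 3 each, adjusted p = 0.00133 by edgeR). GMNN, the inhibitor of CDT1, fell 2.05-fold (13.2 ± 2.05 CPM in PS-MP cells and 26.9 ± 7.95 CPM in controls, n = 3 each, adjusted p = 0.00920 by edgeR). The CDT1 to GMNN ratio of levels per kb was 0.2002, 0.198 and 0.207 in the PS-MP libraries and 0.416, 0.415 and 0.382 in the control libraries, a log2 difference of −1.001 with a pooled within-group SD of 0.055.

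Helicase activation, the step that turns the loaded ring into a moving replisome, included 3 of the 4 deepest falls of the whole set. All 11 of its genes fell (median log2 fold change −1.55). CDC45, which holds the active helicase together with GINS (ENSG00000093009, chromosome 22), had 4.28, 2.97 and 1.75 CPM in PS-MP libraries and 14.8, 16.1 and 26.2 CPM in controls. GINS2 had 4.98, 4.93 and 2.55 CPM in PS-MP libraries and 19.9, 18.3 and 40.6 CPM in controls. MCM10, which helps to separate and start the paired helicases, had 4.46, 3.81 and 2.17 CPM in PS-MP libraries and 16.7, 16.1 and 28.7 CPM in controls. In all of these PS-MP replicate 3 was lowest, control replicate 3 highest and the groups did not overlap.

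CDC45 was 6.39-fold lower (adjusted p = 0.000355), GINS2 6.35-fold (adjusted p = 0.000633) and MCM10 5.91-fold (adjusted p = 0.000333). With both replicate 3 libraries left out the log2 fold change of GINS2 was −1.94 in place of −2.67. TICRR (treslin), which with TOPBP1 carries the cyclin-dependent kinase signal to the origin, had 5.96, 4.32 and 4.46 CPM in PS-MP libraries and 18.8, 19.3 and 23.0 CPM in controls. The spread within its groups was small, and it had the smallest adjusted p of all members (log2 fold change −2.05 ± 0.17 SE, adjusted p = 8.57e-05). Its partner TOPBP1 fell less, by 1.84-fold (23.3 ± 2.45 CPM in PS-MP cells and 42.8 ± 5.82 CPM in controls, n = 3 each).

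The GINS subunits fell unequally. GINS1 fell 2.67-fold, GINS4 2.93-fold and GINS3 1.98-fold, beside the 6.35-fold of GINS2. The ratio of GINS2 to GINS3 levels per kb was 1.35, 1.18 and 0.853 in the PS-MP libraries and 2.92, 2.61 and 5.32 in the control libraries. The kinase CDC7 fell 1.98-fold and its activator DBF4 2.42-fold. For this pair the ratio of DBF4 to CDC7 overlapped between groups, at 0.454, 0.590 and 0.683 in the PS-MP libraries and 0.600, 0.582 and 0.894 in the control libraries. RECQL4, a helicase of the initiation step, fell 3.05-fold.

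Among the polymerases 9 of 11 fell (median log2 fold change −1.01). POLA1, the catalytic subunit of polymerase alpha, which starts each new strand with primase (ENSG00000101868, chromosome X), had 14.2, 13.95 and 16.8 CPM in PS-MP libraries and 29.4, 32.3 and 36.0 CPM in controls. Here PS-MP replicate 3 was the highest of its group, and the fall was 2.18-fold (adjusted p = 0.000356). POLE2, the B subunit of the leading-strand polymerase epsilon, fell further than any other gene of this step, with 2.84, 2.24 and 2.44 CPM in PS-MP libraries and 9.66, 8.68 and 15.9 CPM in controls (4.56-fold, adjusted p = 0.000391). POLE itself, the catalytic subunit, had 19.2, 15.8 and 10.8 CPM in PS-MP libraries and 39.2, 42.0 and 50.3 CPM in controls (2.88-fold lower, adjusted p = 0.000559).

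The remaining polymerase epsilon subunits, the histone-fold proteins POLE3 and POLE4, had smaller fold changes than POLE and POLE2. POLE3 fell 1.52-fold (37.6 ± 2.98 CPM in PS-MP cells and 57.1 ± 9.39 CPM in controls, n = 3 each, adjusted p = 0.0159 by edgeR). POLE4 had 23.6, 28.2 and 15.0 CPM in PS-MP libraries and 23.0, 18.3 and 25.1 CPM in controls, with overlap (adjusted p = 0.987 at a log2 fold change of 0.0083 ± 0.21 SE). The sign was negative in 6 of the 15 alternatives tried. The POLE2 to POLE3 ratio was 0.0668, 0.0486 and 0.0619 in the PS-MP libraries and 0.163, 0.149 and 0.206 in the control libraries. POLE3 lost its call without PS-MP replicate 1 (adjusted p = 0.0776).

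Polymerase delta, which copies the lagging strand, showed a graded pattern. POLD3, an accessory subunit, had 10.5, 9.53 and 9.76 CPM in PS-MP libraries and 22.2, 18.7 and 24.9 CPM in controls (2.21-fold lower, adjusted p = 0.000577). The catalytic POLD1 fell 1.69-fold (adjusted p = 0.0116). POLD2 had 75.6, 73.4 and 56.6 CPM in PS-MP libraries and 81.2, 85.4 and 117.6 CPM in controls. Its groups did not overlap, but the test was not passed (log2 fold change −0.47 ± 0.16 SE, adjusted p = 0.0961), except with no filter on low counts (0.00373). The primase genes PRIM1 and PRIM2 fell 3.34-fold and 2.02-fold, and POLA2 1.90-fold. By the deposited coordinates an unnamed protein-coding gene of the same strand, with 122 counts over the 6 libraries, covers 99.97% of the span of POLA2, so its count is uncertain. In PRIM1 an unnamed protein-coding gene of the same strand, with 0 counts, covers 50.6% of the span. NACA, also of the same strand, covers 5.43% and had 44381 counts over the 6 libraries against 1308 for PRIM1. NACA lay above every control library in PS-MP cells but was not called (log2 fold change 0.18, edgeR adjusted p = 0.264). The PRIM1 count is thus uncertain too. POLA2 lost its call without PS-MP replicate 1 (adjusted p = 0.113) or 2 (0.117) and without control replicate 2 (0.0912) or 3 (0.0931), and POLD1 without PS-MP replicate 1 (0.0535).

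Of the clamp, clamp loader and strand maturation genes 10 of the 11 tested fell (median log2 fold change −1.29). PCNA, the sliding clamp and the most abundant member, fell only 1.35-fold, with 191.9, 222.8 and 198.7 CPM in PS-MP libraries and 262.6, 256.5 and 310.2 CPM in controls (adjusted p = 0.0325). PCNA is also known as a p53 target. That call was lost without PS-MP replicate 1 (adjusted p = 0.152) or 3 (0.0549) and without control replicate 1 (0.0720), 2 (0.0612) or 3 (0.0724). Per kb of exon PCNA stood at 139 CPM per kb in PS-MP cells and 188 in controls, so it remained above every other member in both.

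The loader that places the clamp on DNA, replication factor C, had a large subunit that did not pass and small subunits that fell. RFC1 had 27.4, 25.6 and 33.0 CPM in PS-MP libraries and 32.9, 35.0 and 33.2 CPM in controls, with overlap through PS-MP replicate 3 (log2 fold change −0.23 ± 0.12 SE, adjusted p = 0.267). With both replicate 3 libraries left out RFC1 passed (log2 fold change −0.36, adjusted p = 0.00997). RFC5 had 15.1, 15.2 and 12.3 CPM in PS-MP libraries and 36.0, 36.8 and 54.9 CPM in controls (3.003-fold lower, adjusted p = 0.000307). RFC3, RFC4 and RFC2 fell 3.21-fold, 2.24-fold and 2.08-fold. The RFC3 to RFC1 ratio was 0.855, 0.907 and 0.600 in the PS-MP libraries and 1.94, 1.57 and 2.84 in the control libraries.

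DSCC1, of the alternative clamp loader that acts in sister chromatid cohesion (ENSG00000136982, chromosome 8), had 3.94, 3.59 and 3.82 CPM in PS-MP libraries and 14.7, 14.2 and 20.1 CPM in controls. The PS-MP libraries lay close together, and the level was 4.32-fold lower (adjusted p = 9.25e-05, log2 fold change −2.11 ± 0.18 SE). Its partner CHTF18 fell 2.44-fold (adjusted p = 0.0108), a call lost without PS-MP replicate 1 (0.0530). LIG1, the ligase that seals Okazaki fragments, had 18.7, 19.5 and 17.5 CPM in PS-MP libraries and 39.7, 40.5 and 55.7 CPM in controls (2.44-fold lower, adjusted p = 0.000329). DNA2, a nuclease that trims long flaps, had 6.37, 5.38 and 4.93 CPM in PS-MP libraries and 18.2, 16.5 and 28.4 CPM in controls (3.79-fold lower, adjusted p = 0.000333).

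FEN1, the main flap nuclease, fell 2.77-fold (20.1 ± 5.79 CPM in PS-MP cells and 55.5 ± 22.0 CPM in controls, n = 3 each, adjusted p = 0.00641 by edgeR). In the deposited table the span of FADS2, on the same strand, covers 98.4% of that of FEN1, and FADS2 was higher in PS-MP cells (log2 fold change 0.60, adjusted p = 0.0391), so the FEN1 count is uncertain although the neighbour moved the other way. RNASEH2A, the catalytic subunit of the nuclease that removes RNA from DNA, had 0 counts in each PS-MP library and 8, 1 and 8 counts in the control libraries and was not tested. THSD8 on the same strand covers 99.2% of its span, HOOK2 on the opposite strand all of it, and the part of these overlaps in its low count was not tested.

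Among the fork protection genes 8 of 9 fell (median log2 fold change −1.29), over the widest range of any step. PIF1, a helicase that resolves structured DNA (ENSG00000140451, chromosome 15), had 1.16, 0.673 and 0.212 CPM in PS-MP libraries and 6.89, 6.35 and 11.5 CPM in controls. It showed the deepest fall of all members (log2 fold change −3.61 ± 0.42 SE, adjusted p = 0.000379). PS-MP replicate 3 lay near the floor of 0.159 CPM there, and the log2 fold change was −2.85 with both replicate 3 libraries left out and −4.22 without PS-MP replicate 1. CLSPN (claspin), which links the fork to the checkpoint kinase CHK1, had 2.95, 2.35 and 1.59 CPM in PS-MP libraries and 9.89, 9.60 and 14.9 CPM in controls (5.01-fold lower, adjusted p = 0.000312).

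TIMELESS and TIPIN form the complex that keeps helicase and polymerases together. TIMELESS had 34.7, 34.9 and 24.5 CPM in PS-MP libraries and 68.9, 71.3 and 89.0 CPM in controls (2.44-fold lower, adjusted p = 0.000501). TIPIN had 11.3, 11.7 and 7.74 CPM in PS-MP libraries and 14.4, 13.6 and 21.8 CPM in controls, without overlap but short of the threshold (log2 fold change −0.70 ± 0.21 SE, adjusted p = 0.0684), and it passed by DESeq2 (0.0202) and with no filter on low counts (0.000768). The TIMELESS to TIPIN ratio was 1.46, 1.42 and 1.495 in the PS-MP libraries and 2.27, 2.48 and 1.94 in the control libraries. MCM8, a relative of the ring subunits that works with MCM9 in recombination at damaged forks, had 6.601, 6.39 and 6.15 CPM in PS-MP libraries and 16.0, 14.6 and 16.9 CPM in controls (2.48-fold lower, adjusted p = 0.000266). An unnamed protein-coding gene of the same strand, with 0 counts, covers 99.4% of the span of MCM8, whose count is uncertain for that reason. WDHD1, which joins polymerase alpha to the helicase, fell 2.44-fold.

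The RPA genes, which encode the protein that coats single-stranded DNA in replication and repair alike, fell least of the fork genes called. RPA1 was 1.44-fold lower (74.2 ± 5.06 CPM in PS-MP cells and 106.7 ± 11.4 CPM in controls, n = 3 each, adjusted p = 0.0128 by edgeR), RPA2 1.52-fold (adjusted p = 0.0382) and RPA3 1.81-fold (adjusted p = 0.00313). UMAD1 on the opposite strand covers 94.9% of the RPA3 span, with 2165 counts over the 6 libraries against 5515 for RPA3. The RPA3 count is therefore uncertain. The RPA2 to RPA1 ratio overlapped between groups, being 0.781, 1.06 and 0.721 in the PS-MP libraries and 0.875, 0.818 and 0.973 in the control libraries. RPA1 lost its call without PS-MP replicate 2 (adjusted p = 0.0608). RPA2 lost it without PS-MP replicate 1 (0.140) or 3 (0.0848) and without control replicate 1 (0.0542) or 3 (0.103).

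**Figure D3:**
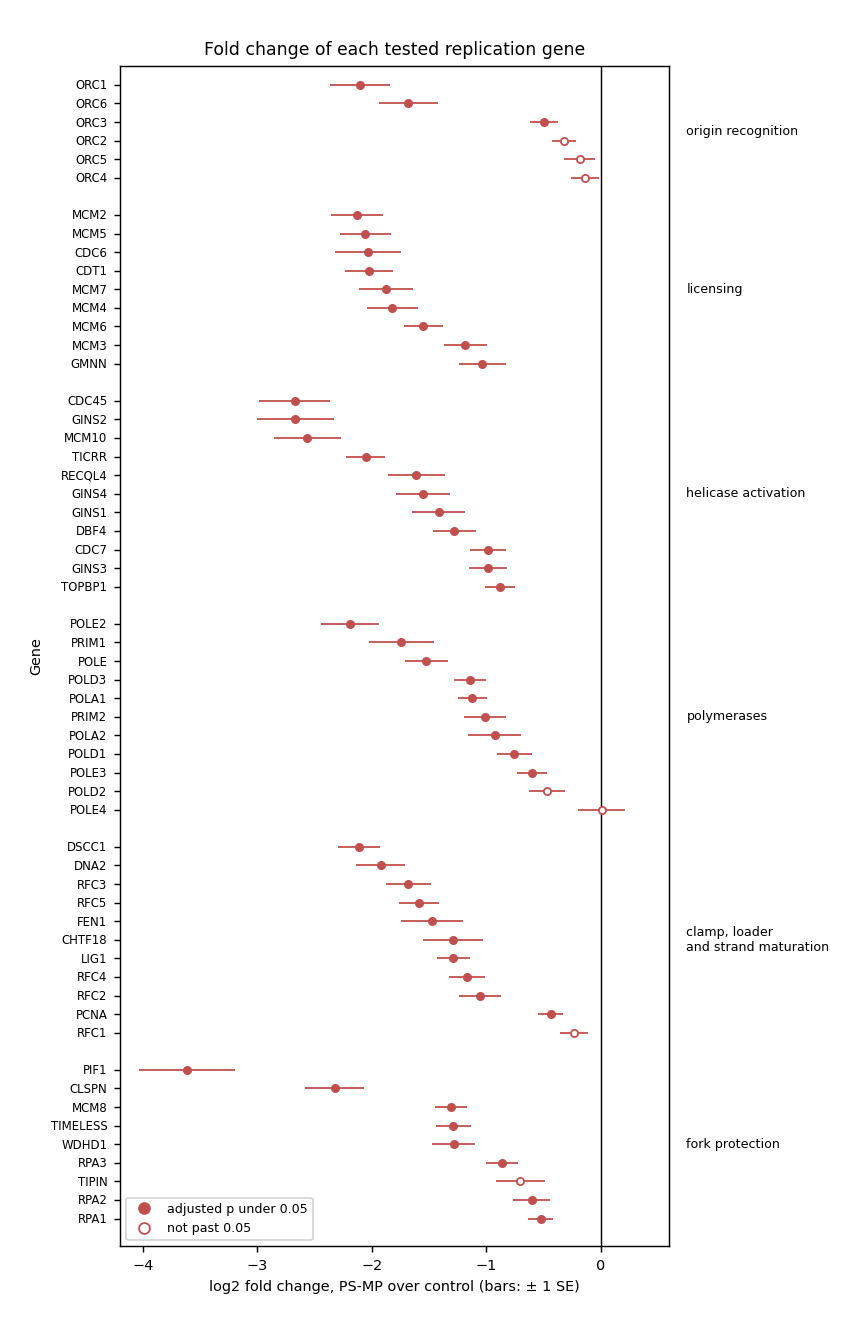
log2 fold change, PS-MP over control, of each of the 57 tested members with 1 SE on either side, ordered within each step; filled points passed the adjusted p of 0.05 and open points did not. PIF1 lies lowest at −3.61 and POLE4 highest at 0.01, and the 7 open points are ORC2, ORC4, ORC5, POLD2, POLE4, RFC1 and TIPIN.

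Ratios between genes of 1 library do not depend on how libraries were scaled. Of the 16 ratios computed, those with the largest differences were ORC1 to the ORC2 to ORC5 sum (log2 difference −1.85), CDC6 to the same sum (−1.80), GINS2 to GINS3 (−1.64), POLE2 to POLE3 (−1.55) and RFC3 to RFC1 (−1.40). The smallest were those of RPA2 to RPA1 (−0.075), MCM2 to MCM7 (−0.24), POLA1 to POLA2 (−0.24) and DBF4 to CDC7 (−0.26). With 3 libraries against 3, the two-sided exact permutation test cannot go below p = 0.1, a value that 13 of the 16 ratios reached, with an adjusted p of 0.123 over the 16. No ratio passed the threshold, and the p was 0.7 for RPA2 to RPA1, 0.2 for POLA1 to POLA2 and 0.5 for DBF4 to CDC7 by that exact test.

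**Figure D4:**
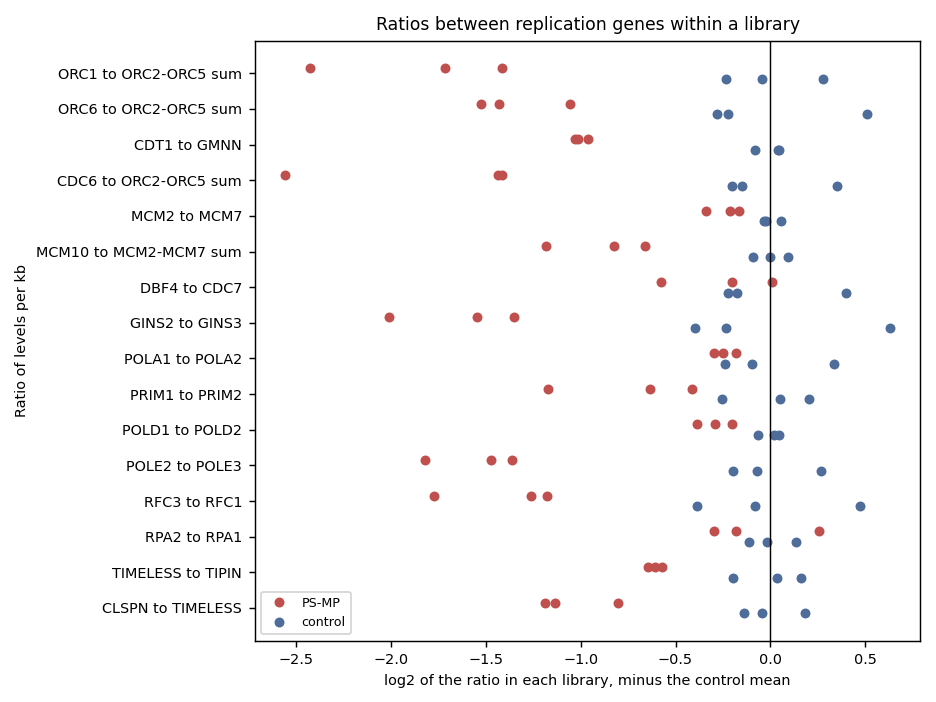
Ratio of levels per kb between replication genes in each library, as log2 minus the control mean of that ratio; each point is a library. For CDT1 to GMNN the PS-MP points lie close together near −1.001, while for DBF4 to CDC7, POLA1 to POLA2 and RPA2 to RPA1 the groups overlap.

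Beyond the members, 39 other genes of the replication pathway were examined, of which 38 could be tested. In this list 21 fell and 0 rose (median log2 fold change −0.64), against the 4.65% of all tested genes called lower, and 18 or fewer fell when any 1 library was left out, down to 13 without PS-MP replicate 1. In that last setting 2.59% of all tested genes were called lower. CCNA2, the cyclin A of S phase and G2, had 8.11, 7.51 and 4.40 CPM in PS-MP libraries and 37.3, 37.4 and 62.0 CPM in controls (6.85-fold lower, adjusted p = 0.000130). DTL, the substrate receptor through which CDT1 is degraded on PCNA, had 8.22, 5.94 and 5.15 CPM in PS-MP libraries and 21.1, 24.2 and 35.0 CPM in controls (4.17-fold lower, adjusted p = 0.000284). Its ligase partners CUL4A and DDB1 did not pass (log2 fold changes −0.12 and −0.02).

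DBF4B, a second activator of CDC7, fell 3.77-fold (adjusted p = 0.000312), with 4.86, 5.49 and 3.45 CPM in PS-MP libraries and 15.4, 14.8 and 21.7 CPM in controls. ASF1B, a histone chaperone of dividing cells, fell 5.14-fold (adjusted p = 0.000566), with 3.995, 2.58 and 1.49 CPM in PS-MP libraries and 11.8, 12.4 and 17.04 CPM in controls. Its paralogue ASF1A stood at 17.9 ± 0.983 CPM in PS-MP cells and 18.5 ± 1.75 CPM in controls (n = 3 each, adjusted p = 0.850 by edgeR). POLD4, the small subunit of polymerase delta, had a log2 fold change of 0.26 and did not pass (adjusted p = 0.243), although its PS-MP libraries lay above every control library. Its span is covered to 87.1% by an unnamed protein-coding gene of the same strand, with 3 counts over the 6 libraries. RAD9A on the opposite strand covers all of it, so the POLD4 count is uncertain. MCM9, the partner of MCM8, had a log2 fold change of −0.16 (adjusted p = 0.604).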

How the data were processed

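The deposited values were whole-number read counts, 1 for each Ensembl gene and library. Tools listed in the submitters' processing notes include HISAT2, fastp, RSEM, StringTie and DESeq2, and the build is GRCh38. The counting tool named by the deposited table is featureCounts; its strand setting, treatment of multi-mapping reads and annotation release are not given in the sources used here. By the deposited coordinates 38 of the 58 members overlap another gene, 17 of them on the same strand and 31 on the opposite strand. On the opposite strand, GPAT4-AS1 (2 counts over the 6 libraries) covers all of GINS4 and an unnamed gene (3 counts) 98.2% of DSCC1. KIF7, also opposite, had 559 counts against 1508 for TICRR and covers 40.1% of its span. The part of these overlaps in the member counts was not tested. Exon lengths for CPM per kb came from GENCODE 29, which held 92.9% of the IDs. Genes passing filterByExpr were fitted in edgeR 4.0.16 (R 4.3.3) with TMM factors, no block, and a robust quasi-likelihood test, two-sided, with Benjamini-Hochberg adjustment. Fits were tested on simulated counts. Members and lists were chosen with earlier results of these data known. Values by library are given for the 4 called members of each step with the smallest adjusted p, for members not called, and for the 4 leading other factors; further genes were chosen after their values were seen. Alternatives used DESeq2 1.42.0, limma 3.58.1, other scalings and filters, a replicate block and left-out libraries. Even the closest pair of libraries, control replicates 1 and 2, differed by more than sampling (4.16 chi-square units per degree of freedom).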

Additional observations from a re-analysis of the deposited data

How the results depend on the processing

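Over 15 alternatives 41 to 53 members were called lower and 0 higher, and 41 of the 50 called members passed in each. The share of all tested genes called lower ran from 2.59% (without PS-MP replicate 1) to 13.1% (both replicate 3 libraries left out). That share was 2.7% with the replicate block, which gave 41 members, and 2.92% with no filter on low counts, which gave 53. The 1478 genes called in all became 4129 with both replicate 3 libraries left out, 771 to 1696 when 1 library was left out, and 750 with the replicate block. The block left 41 members lower; the 9 that did not pass under it were ORC3, GMNN (adjusted p = 0.0514), POLA2, POLD1, POLE3, PCNA, CHTF18, RPA1 and RPA2. The labels do not say that a replicate number marks a shared culture or day, so the main fit had no block. Over all tested genes, deviations from the group means correlated at −0.119, −0.153 and −0.219 between same-numbered libraries. No library correlated best with its own number. Such deviations cancel within a group of 3, so these correlations are not independent and cannot decide whether the numbers mark pairs. The other replication factors called lower were 13 to 18 when 1 library was left out. The log2 fold change of POLE4 was −0.030 with limma-voom, −0.061 with total counts as the only scaling, −0.022 with the replicate block, and −0.20 to 0.23 when 1 library was left out. Over all 15 alternatives it reached 0.33 at most, and POLE4 was not called in any (smallest adjusted p of the alternatives 0.0692). With both replicate 3 libraries left out CCNE1 was at 0.022, ASF1A at 0.071, SDE2 at 0.0072, RNASEH2C at 0.055 and the RPA2 to RPA1 log2 difference at 0.10. When 1 library was left out ASF1A ranged from −0.11 to 0.028, SDE2 from −0.21 to 0.088, RNASEH2C from −0.43 to 0.0092, RAD17 from −0.040 to 0.019 and the RPA2 to RPA1 log2 difference from −0.24 to 0.036. RAD17 was at 0.0058 with upper-quartile scaling. The cause of these turns was not tested. PIF1, near the counting floor, had the largest SE of the members (0.42).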

Other observations

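Low counts were also found for 2 other replication genes that lie under a longer gene of the same strand in the deposited table. CHTF8, the third subunit of the alternative clamp loader with CHTF18 and DSCC1, had 40 counts over the 6 libraries and was not tested, and the span of DERPC, with 0 counts, covers all of it. RTEL1, a helicase that unwinds telomeric loops, had 118 counts over the 6 libraries (0.716 ± 0.261 CPM in PS-MP cells and 1.31 ± 0.145 CPM in controls, SD, n = 3 each), and RTEL1-TNFRSF6B covers 96.1% of its span. RNASEH2B and RNASEH2C, the partners of RNASEH2A, stood at 14.5 ± 2.09 and 16.5 ± 4.98 CPM in PS-MP cells and at 18.2 ± 1.87 and 19.0 ± 1.904 CPM in controls, and neither passed (adjusted p = 0.207 and 0.577 by edgeR). With both replicate 3 libraries left out RNASEH2B passed (log2 fold change −0.36, adjusted p = 0.0352), as did RTEL1 (log2 fold change −1.11, adjusted p = 0.0437).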
